A study of Mus musculus with 6 samples.

Results

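The 10 genes described here (Mdm2, Trp53inp1, Sesn1, Sesn2, Zmat3, Phlda3, Gadd45a, Btg2, Plk2 and Aen) are transcriptional targets of the tumour suppressor p53, listed by name for roles other than the core cell death machinery. All 10 had a feature of their own on the array, 1 each, among 19938 genes measured that way, and none of these features is shared with another gene. They were read in multipotent progenitors, an early blood-forming cell of the bone marrow, sorted from mice in which exons 2 to 4 of the latexin gene (Lxn) are deleted and from mice with intact latexin (WT). There are 3 arrays labelled Lxn-/- and 3 WT arrays. Every array was made from a pool of about 100000 cells from 10 to 20 C57BL/6 mice that were 8 to 12 weeks old and are labelled female. The sort kept cells without lineage markers that carried Sca-1, c-Kit, CD34 and the receptor written Flt2 in the series text, which in other places names the cells long-term stem cells. The labels name no Cre driver or tissue for the deletion, and no other allele or treatment in either group.

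In unstressed cells p53 is kept scarce by the ubiquitin ligase that Mdm2 encodes. DNA damage and other stresses stabilise p53, which binds paired copies of a short half-site in DNA and switches on genes of cell cycle arrest, repair, metabolism and cell death. Mdm2 is itself such a target, which closes a feedback loop. In blood-forming cells p53 is known to take part in quiescence and in the response to radiation. Several of the 10 genes also respond to other signals. Btg2 and Plk2 are induced by growth factors and handling stress, Gadd45a by stress, and Sesn1 by FOXO factors. Despite the name of the list, Aen and Trp53inp1 are also known to promote cell death.

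Some arrays went against their labels, which touches every value below. Lxn was 8.03, 8.53 and 8.61 in arrays 1, 2 and 3 labelled Lxn-/-, against 8.56, 8.70 and 8.58 in WT arrays 1, 2 and 3 (log2 RMA values, as are all levels in this text). These groups overlap, and the exons that the feature covers are unknown here, so the groups are called by their labels. The mean level of 3 Y-linked genes was 8.33 and 9.12 in arrays 1 and 3 labelled Lxn-/-, against 4.49 in array 2 with that label and 4.48 to 4.83 in WT, although all donors are labelled female. Xist, the X inactivation RNA, was 6.86 and 5.85 in arrays 1 and 3 labelled Lxn-/-. It was 13.17 in array 2 with that label and 13.13 to 13.23 in WT. By both measures arrays 1 and 3 read as male, so sex appears to differ within the Lxn-/- label and between labels. The difference of each of the 10 genes is therefore also given without arrays 1 and 3. Across 23410 features fitted with limma, the smallest adjusted p (Benjamini-Hochberg) was 0.340.

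None of the 10 genes passed the test between arrays labelled Lxn-/- and WT arrays. Their adjusted p in limma ran from 0.480 for Btg2 to 0.912 for Sesn1, and the share of all features that passed was 0%. At an unadjusted p under 0.05 there were 0 of the 10, where 14.3% of all features lay. Of the 10, 6 had a higher mean in the arrays labelled Lxn-/- and 4 a lower one, with a median log2 difference of 0.08, while 42.2% of all features were higher and their median difference was -0.04. Brighter features leaned up instead: over the 11705 above the median level the median difference was 0.07. The 9 members among them had a median of 0.11. The largest mean difference was that of Btg2, 0.24, or 1.18-fold, and it was 0.065 without array 3 labelled Lxn-/-. In 1 of the 10 genes, Mdm2, the values did not overlap between the labels; it was higher, as 8.54% of all features were without overlap, and 13.0% were lower without overlap. With 3 arrays against 3, an exact permutation test of a single gene cannot give a two-sided p under 0.10. These are bulk measurements, in which fewer cells of a type and less RNA per cell cannot be told apart.

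**Figure D1:**
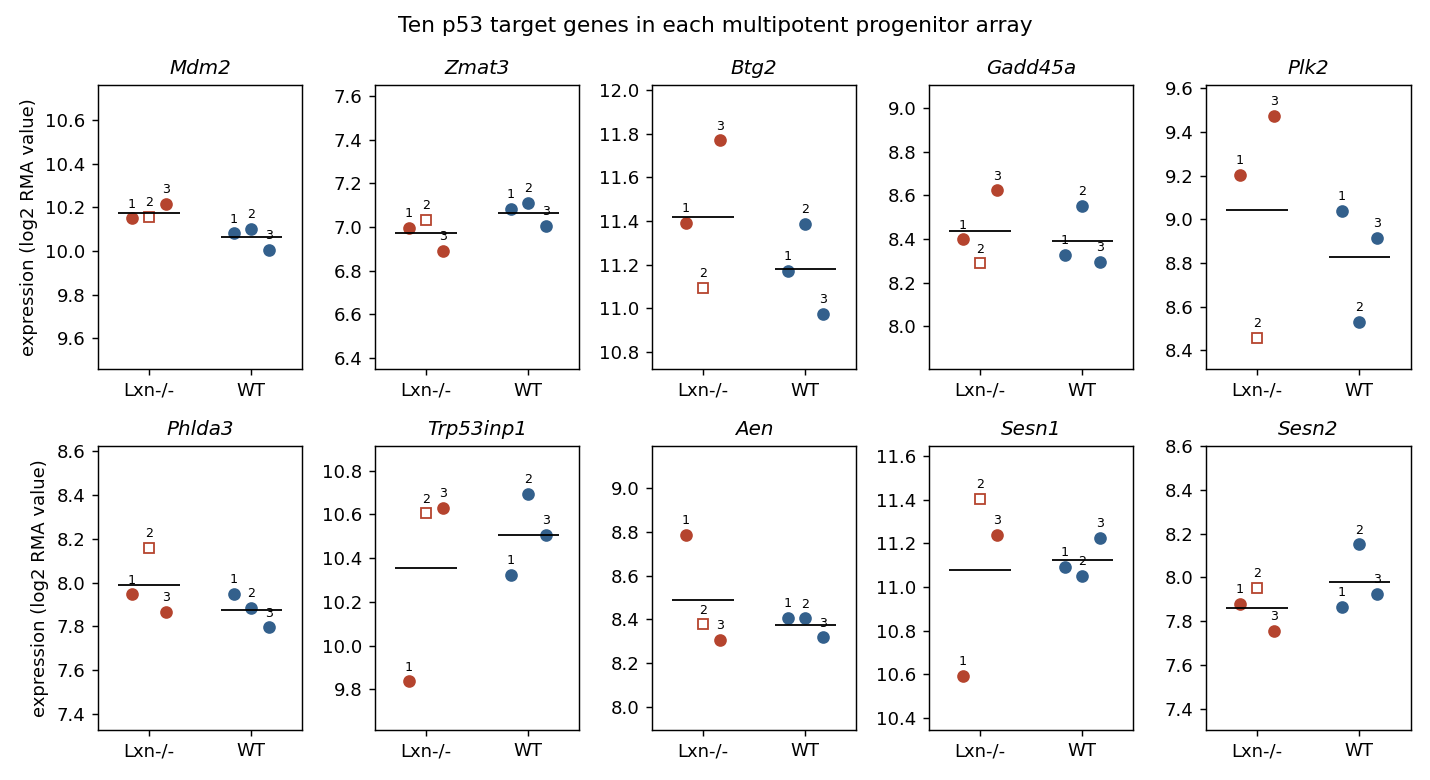
Log2 RMA value of each gene in every array, arrays labelled Lxn-/- on the left of each panel and WT on the right. Numbers are replicate numbers, black lines are group means, the open square is the array labelled Lxn-/- without Y-linked signal, and all panels span 1.3 log2 units. Mdm2 and Zmat3 vary little, whereas Plk2, Btg2, Trp53inp1 and Sesn1 spread widely among the arrays labelled Lxn-/-.

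Mdm2, the ubiquitin ligase that marks p53 for destruction, varied little. Its values were 10.15, 10.15 and 10.22 for the arrays labelled Lxn-/-, against 10.08, 10.10 and 10.00 in WT arrays. All 3 arrays with the Lxn-/- label lay above all 3 WT arrays, by a small margin. The log2 difference was 0.11 (SE 0.08, 95% interval -0.08 to 0.30, limma adjusted p 0.495). The difference from WT was 0.12 for arrays 1 and 3 alone, which carry Y-linked signal, and 0.09 for array 2 alone. After the features were quantile-normalized again the difference was 0.03 and the values overlapped. Over the 6 arrays its range was 0.21, narrower than in all but 11.4% of features, whose median range was 0.39. The genes most like it over the 6 arrays, by the root mean square difference of centred log2 values, were Ubtd2 (0.013), Rnf149 (0.015) and B3glct (0.018), against a median of 0.15 over all 19938 genes.

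Mdm4, the family member of Mdm2 that restrains p53 without degrading it, was 10.33, 10.58 and 10.61 in the arrays labelled Lxn-/-, against 10.54, 10.51 and 10.32 in WT. Its groups overlapped (log2 difference 0.05, SE 0.11, limma adjusted p 0.804). Zmat3, a zinc finger RNA-binding protein that acts on splicing and on mRNA stability, was 6.995, 7.033 and 6.893 in arrays labelled Lxn-/-, against 7.082, 7.109 and 7.005 in WT. Its groups overlapped only through array 2 labelled Lxn-/- and WT array 3. The log2 difference was -0.09 (SE 0.09, 95% interval -0.29 to 0.10, limma adjusted p 0.581), and it was -0.03 for array 2 labelled Lxn-/- alone and 0.03 after quantile normalization, so no direction is given.

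The 250 bases before the RefSeq start of Mdm2 are shown because Mdm2 is the member without overlap between the labels; they are from GRCm38.p6, chr10:117710759-117711008 (- strand), with a match to the p53 half-site consensus in capitals. The promoter through which p53 is known to act on Mdm2 lies further inside the gene and is not in this window.
Mdm2: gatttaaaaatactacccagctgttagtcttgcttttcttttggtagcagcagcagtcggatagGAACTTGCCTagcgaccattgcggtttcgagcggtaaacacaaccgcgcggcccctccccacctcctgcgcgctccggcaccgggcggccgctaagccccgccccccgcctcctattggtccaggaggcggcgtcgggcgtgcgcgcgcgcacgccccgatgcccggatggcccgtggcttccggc

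A promoter window of 300 bases (250 before and 50 after a start) was given for 8 of the 10 genes, in 10 windows, since Sesn1 and Aen have a pair each. A match to the p53 half-site consensus stood in 5 of the 10 windows, those of 4 genes, Mdm2, Sesn1, Gadd45a and Aen, and in 8.36% of all 32851 windows. The genes were listed as p53 targets beforehand, so this contrast is no result of these arrays. The pair of Aen windows holds the same site, and in Sesn1 it is in 1 of the 2 windows. The 8-letter motif TGACGTCA, a binding sequence of the CREB and ATF factors, stood in 2 of the 10 windows, those of Btg2 and Plk2, and in 1.79% of all windows. The motif TGANTCA, bound by AP-1, and the CArG box of serum response factor stood in 0 of these windows and in 7.81% and 1.63% of all. Every motif reads the same on both strands, and a match says only that the letters are there. The next 3 sequences are the 250 bases before the start, from GRCm38.p6, of the 3 members that were lowest in array 2 among the arrays labelled Lxn-/-, as described next. Capitals mark TGACGTCA in Btg2, chr1:134079156-134079405 (- strand), and in Plk2, chr13:110394794-110395043 (+ strand), and the half-site match in Gadd45a, chr6:67037408-67037657 (- strand).
Btg2: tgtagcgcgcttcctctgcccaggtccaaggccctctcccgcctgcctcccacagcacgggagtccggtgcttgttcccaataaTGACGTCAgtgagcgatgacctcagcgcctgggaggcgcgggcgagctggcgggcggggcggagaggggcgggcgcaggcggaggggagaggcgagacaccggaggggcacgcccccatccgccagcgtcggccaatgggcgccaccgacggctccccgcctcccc
Plk2: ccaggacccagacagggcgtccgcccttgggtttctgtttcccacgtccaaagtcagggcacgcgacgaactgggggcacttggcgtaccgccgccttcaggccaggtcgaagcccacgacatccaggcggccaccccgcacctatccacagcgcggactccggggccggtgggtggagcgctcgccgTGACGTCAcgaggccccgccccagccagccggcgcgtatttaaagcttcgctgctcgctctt
Gadd45a: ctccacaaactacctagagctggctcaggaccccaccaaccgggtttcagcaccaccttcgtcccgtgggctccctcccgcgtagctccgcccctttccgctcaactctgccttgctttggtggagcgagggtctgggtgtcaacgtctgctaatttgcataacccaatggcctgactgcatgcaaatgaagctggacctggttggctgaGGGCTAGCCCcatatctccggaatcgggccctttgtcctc

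Plk2, Btg2 and Gadd45a were the 3 of the 10 genes (30%) that were lowest in array 2 among the arrays labelled Lxn-/-. That share is near the 32.3% of all features, so the count says nothing particular about the 10 genes. Plk2, a polo-like kinase of centriole duplication and stress responses, was 9.20, 8.46 and 9.47 in arrays 1, 2 and 3 labelled Lxn-/-, against 9.04, 8.53 and 8.91 in WT. Arrays 1 and 3 lay above every WT array and array 2 lay below every WT array. Its mean log2 difference was 0.22 (SE 0.24, 95% interval -0.33 to 0.76, limma adjusted p 0.638). It was 0.004 without array 3 labelled Lxn-/-, 0.14 without array 1 and 0.07 without WT array 2. It was 0.51 (SE 0.16, unadjusted p 0.00888, limma adjusted p 0.310) for arrays 1 and 3 alone against WT and -0.37 (SE 0.19, limma adjusted p 0.443) for array 2 alone, whose spread the fit takes from the WT arrays. Over the 6 arrays Plk2 ranged over 1.01 log2 units, more than 97.6% of features.

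Btg2, an antiproliferative protein that recruits the deadenylase complex to mRNA, was 11.39, 11.10 and 11.77 in the arrays labelled Lxn-/-, against 11.17, 11.39 and 10.98 in WT. Array 3 labelled Lxn-/- was the highest, array 1 was level with the highest WT array, and array 2 lay within the WT range. The log2 difference was 0.24 (SE 0.17, 95% interval -0.15 to 0.63, limma adjusted p 0.480). It was 0.065 without array 3 labelled Lxn-/- and 0.14 without WT array 3. It was 0.40 (SE 0.15, unadjusted p 0.0249, limma adjusted p 0.378) for arrays 1 and 3 alone and -0.08 (SE 0.17) for array 2 alone. Plk2 and Btg2 were the 2 of 10 genes with an unadjusted p under 0.05 in the comparison without array 2, against 11.3% of all features, and 0 of the 10 passed adjustment there, against 0.619%. With array 2 as the only one of its label, 0 of the 10 had an unadjusted p under 0.05, against 12.8% of all features, or passed adjustment, against 0.0128%.

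Gadd45a, a small acidic protein of growth arrest and DNA repair, was 8.40, 8.29 and 8.62 in the arrays labelled Lxn-/-, against 8.33, 8.55 and 8.30 in WT. The groups overlapped, with array 3 labelled Lxn-/- the highest and array 2 the lowest of all 6. Its log2 difference was 0.05 (SE 0.12, 95% interval -0.22 to 0.31, limma adjusted p 0.849), 0.12 without array 2 and -0.10 without arrays 1 and 3. The genes with the pattern most like that of Btg2 were Dusp18, 1700065D16Rik and Cebpd, at a root mean square difference of 0.05, 0.06 and 0.06 log2 units, against a median of 0.29 over all genes.

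Immediate early genes, which cells switch on within minutes of stimulation or tissue dissociation, were also lowest in array 2 within the Lxn-/- label. Of 24 listed, 23 were measured, and all 23 were lowest in array 2 among the arrays labelled Lxn-/-, as were Btg2, Plk2, Gadd45a and 32.3% of all features. This way of counting was chosen after the values were seen. The mean level of the 23 was 10.36, 9.71 and 10.56 in arrays 1, 2 and 3 labelled Lxn-/-, against 9.95, 10.14 and 9.85 in WT. Their median log2 difference was 0.15, with 20 higher, 1 at an unadjusted p under 0.05 and 0 passing adjustment. That 1 is Hspa1a, the inducible heat shock protein gene, which has a near-identical copy and may share signal with it. Hspa1a was 10.32, 8.80 and 11.33 in the arrays labelled Lxn-/-, against 8.41, 8.19 and 8.20 in WT, so that array 2 too lay above every WT array. Its log2 difference was 1.88 (SE 0.50, limma adjusted p 0.340), or 3.68-fold. Fos, Socs3 and Zfp36 came next, with log2 differences of 0.44 (SE 0.22), 0.28 (SE 0.15) and 0.31 (SE 0.19). Without array 2 the median of the list was 0.38, and without arrays 1 and 3 it was -0.28. Whether this response or the Y-linked signal has a part in the Plk2, Btg2 and Gadd45a values was not tested, since both stand in the same arrays.

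**Figure D2:**
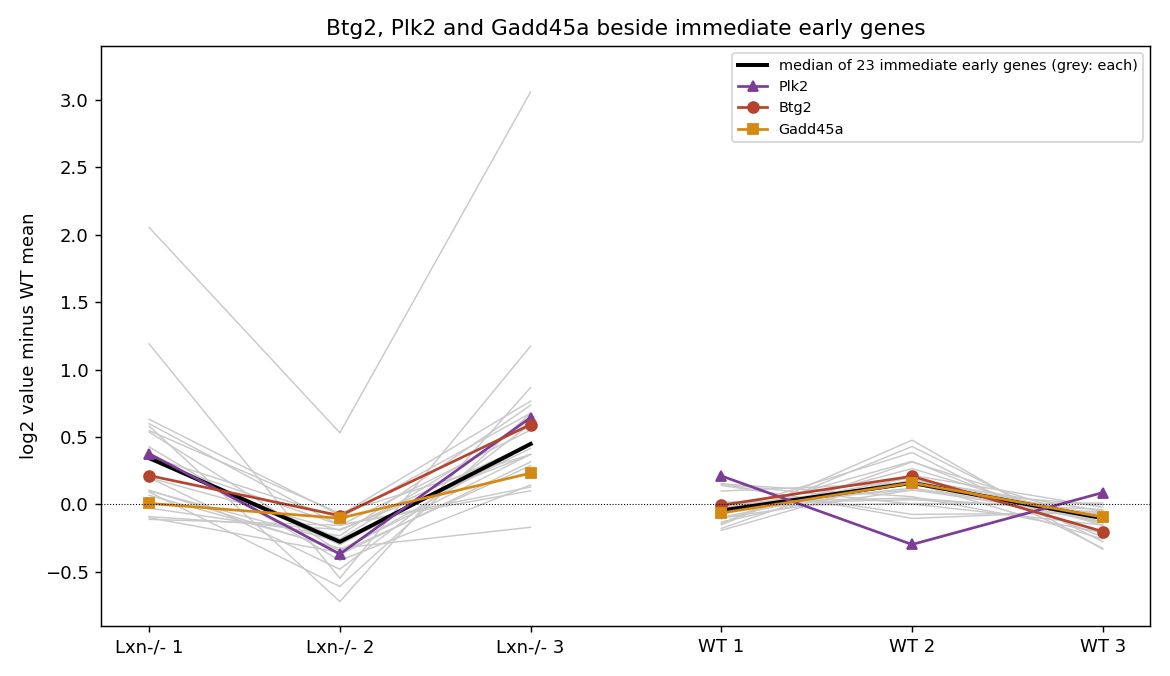
Log2 value minus the WT mean of that gene in each array for Plk2, Btg2 and Gadd45a (coloured), 23 immediate early genes (grey) and their median (black); lines join the values of a gene within a label and mark no order of replicates. Array 2 labelled Lxn-/- is the low point of all these genes within its label, and among WT arrays Plk2 is lowest in array 2, where the immediate early median is highest.

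Plk3 and Gadd45b, family members of these genes, were likewise lowest in array 2 within the Lxn-/- label. So were 8 of the 15 measured family members of the 10 genes (53.3%), against 32.3% of all features, while 4 were lowest in array 1. Plk3, a stress-induced kinase related to Plk2, was 9.35, 8.15 and 9.34 in the arrays labelled Lxn-/-, against 8.56, 8.74 and 8.31 in WT. Arrays 1 and 3 were above every WT array and array 2 was below. Gadd45b, the family member of Gadd45a that responds to cytokines, was 9.80, 8.88 and 9.66 in the arrays labelled Lxn-/-, against 8.47, 9.38 and 8.99 in WT, with array 2 inside the WT range. Neither passed the test (limma adjusted p 0.474 and 0.394). Of the 15 measured family members of the 10 genes, 11 had a higher mean and 4 a lower one, 0 had an unadjusted p under 0.05, and the median log2 difference was 0.06, or 0.001 after quantile normalization and -0.07 for array 2 alone. The smallest p values were those of Isg20l2, a nuclease of ribosome production related to Aen (0.22, SE 0.10), Plk4, the kinase that starts centriole duplication (0.25, SE 0.12), Zmat4 (-0.17, SE 0.09) and Gadd45b (0.50, SE 0.27).

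The sign of the difference turned without array 1 labelled Lxn-/- for Trp53inp1, Aen and Sesn1, the last of which is described with the sestrins. Trp53inp1, a stress-induced nuclear protein that promotes p53 phosphorylation and autophagy, was 9.84, 10.60 and 10.63 in arrays 1, 2 and 3 labelled Lxn-/-, against 10.32, 10.69 and 10.51 in WT. Array 1 was far below the other 5, which overlapped. Its log2 difference was -0.15 (SE 0.20, 95% interval -0.61 to 0.31, limma adjusted p 0.705) and turned to 0.11 (SE 0.12) without array 1 and to 0.10 (SE 0.16) for array 2 alone. In array 1 its distance from the WT mean was larger than that of 98.1% of features in that array, against 34.6% and 37.5% in arrays 2 and 3.

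Aen, an exonuclease that acts in DNA fragmentation, went the other way in that array. It was 8.79, 8.38 and 8.31 in the arrays labelled Lxn-/-, against 8.41, 8.41 and 8.32 in WT. Array 1 stood above the other 5, which lay between 8.31 and 8.41. The log2 difference of 0.11 (SE 0.13, 95% interval -0.18 to 0.40, limma adjusted p 0.65) became -0.04 (SE 0.09) without array 1, and it was 0.0002 for array 2 alone. Phlda3, a membrane-binding protein that competes with the kinase Akt and so restrains survival signals, was 7.95, 8.16 and 7.87 in the arrays labelled Lxn-/-, against 7.95, 7.88 and 7.79 in WT. Its highest value was in array 2, and the groups overlapped. The log2 difference was 0.12 (SE 0.10, 95% interval -0.12 to 0.35, limma adjusted p 0.561). It was 0.03 in arrays 1 and 3 alone and 0.28 (SE 0.13, limma adjusted p 0.397) in array 2 alone.

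The sestrins, which lower the activity of the growth kinase complex mTORC1, had unlike patterns. Sesn1 was 10.59, 11.40 and 11.24 in the arrays labelled Lxn-/-, against 11.09, 11.05 and 11.22 in WT. Array 1 was the lowest of all 6 and arrays 2 and 3 were the highest, so that both extremes carried the same label. The log2 difference was -0.04 (SE 0.19, 95% interval -0.47 to 0.38, limma adjusted p 0.912), 0.20 (SE 0.10) without array 1 and -0.21 (SE 0.17) without array 2, and it was 0.28 (SE 0.13) for array 2 alone. Sesn2, known from human cells as a leucine sensor, was 7.88, 7.95 and 7.76 in the arrays labelled Lxn-/-, against 7.86, 8.15 and 7.92 in WT. The groups overlapped, with WT array 2 the highest. Its log2 difference was -0.12 (SE 0.11, 95% interval -0.36 to 0.12, limma adjusted p 0.565), and -0.03 without WT array 2 or for array 2 labelled Lxn-/- alone. Sesn3, which FOXO factors also induce, had a log2 difference of 0.04 (SE 0.13).

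Array 1 labelled Lxn-/-, in which Trp53inp1 and Sesn1 were low and Aen was high, also stood apart in cell type markers. Among the arrays labelled Lxn-/-, 31.6% of all features were lowest in array 1, as were 3 of the 10 members (30%), Trp53inp1 and Sesn1 among them. Of 4 genes of the sort gate 3 were measured, and all 3 were lowest in array 1 among the arrays labelled Lxn-/-. Their mean level was 12.42 there, against 12.82 and 12.75 in arrays 2 and 3 and 12.74 to 12.75 in WT. All 5 mast cell and basophil markers were lowest there too, at a mean of 8.06 against 9.04 and 9.11 in arrays 2 and 3 and 9.23 to 9.45 in WT. The other marker lists had mean levels in the arrays labelled Lxn-/- and in WT, in that order, of 7.84 to 8.05 and 8.07 to 8.58 for 5 erythroid genes, 7.83 to 8.15 and 8.18 to 8.52 for 4 megakaryocyte genes, and 7.30 to 7.52 and 7.51 to 7.75 for 5 long-term stem cell genes. They were 10.93 to 11.25 and 10.78 to 11.30 for 8 neutrophil genes, 8.13 to 8.20 and 8.02 to 8.18 for 5 macrophage genes, 7.44 to 7.49 and 7.41 to 7.80 for 5 B cell genes, and 6.62 to 6.89 and 6.61 to 6.82 for 4 T cell genes. Array 1 labelled Lxn-/- had the lowest mean level of all arrays for the erythroid (7.84), megakaryocyte (7.83) and long-term stem cell (7.30) lists. It had the highest for the T cell list (6.89), and it lay within the WT range for the neutrophil, macrophage and B cell lists. No detection calls were used, so whether a marker was absent is not known. The part of cell mixture in the values of Trp53inp1, Sesn1 and Aen was not tested.

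**Figure D3:**
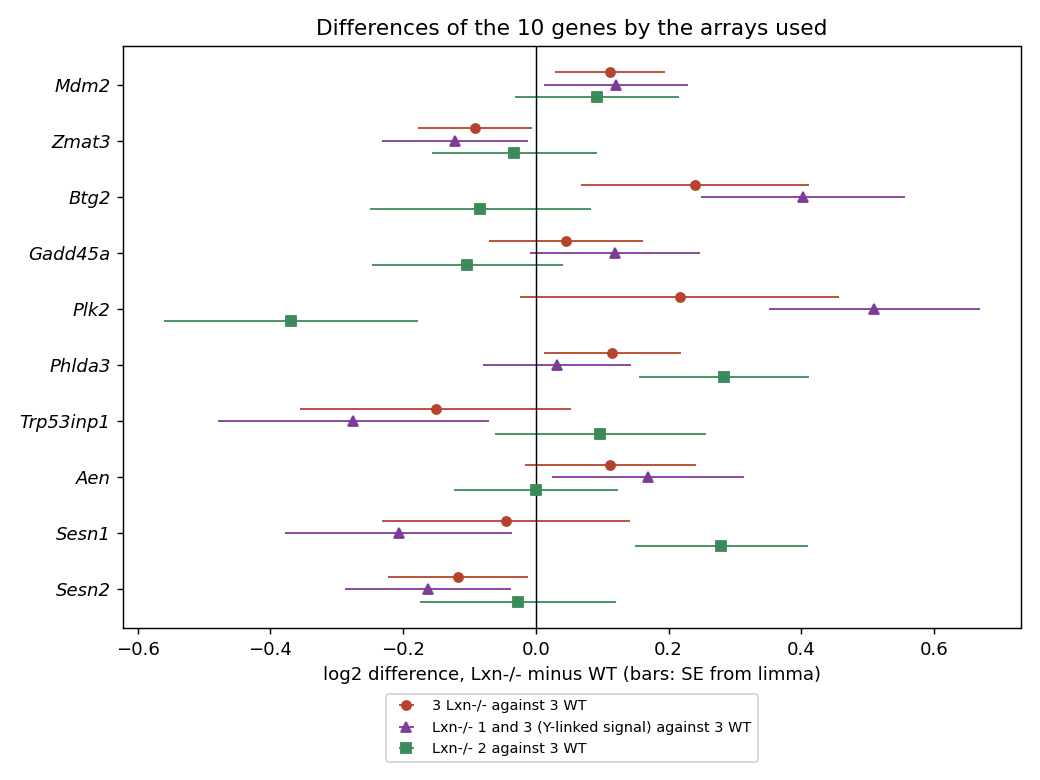
Log2 difference, arrays labelled Lxn-/- minus WT, with its SE from limma, for each gene with all arrays (circles), with arrays 1 and 3 only (triangles) and with array 2 only (squares) on the Lxn-/- side. Plk2, Btg2, Gadd45a, Sesn1 and Trp53inp1 have opposite signs in the last 2 comparisons, whereas Mdm2 lies between 0.09 and 0.12 in all 3.

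The wider p53 network, listed with earlier results of these arrays known, gave no gene past the adjusted threshold either. Of 16 measured regulators of p53, 13 had a higher mean in the arrays labelled Lxn-/- and 3 a lower one, against 42.2% of all features that were higher. Their median log2 difference was 0.13, and 4 were higher without overlap, against 8.54% of all features. With only features above the median level kept, the median of the regulators was 0.13, against 0.07 for all such features. After quantile normalization the median of all 16 was 0.06, and it was 0.12 for arrays 1 and 3 alone and 0.15 for array 2 alone. Array by array, their median distance from the WT mean was -0.03, 0.15 and 0.21 in arrays 1, 2 and 3 labelled Lxn-/-. The median thus showed no rise in array 1, where some regulators, such as Chek1 and Prkdc, were above their WT mean and others below. Among the arrays labelled Lxn-/-, 10 of the 16 (62.5%) were lowest in array 1, against 31.6% of all features. The regulator with the smallest p was Prkdc, the DNA-dependent protein kinase that senses breaks, at 9.29, 9.24 and 9.34 in the arrays labelled Lxn-/-, against 9.11, 8.91 and 9.04 in WT. Its groups did not overlap, with a log2 difference of 0.27 (SE 0.09, limma adjusted p 0.340). The checkpoint kinases Chek1 (0.31, SE 0.14) and Atm (0.17, SE 0.09) and the deacetylase Sirt1 (0.22, SE 0.11) followed. Trp53 was not analysed here.

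Among other p53 targets of the cell cycle 6 were measured, 4 of them higher and 2 lower, with a median of 0.05 that was -0.002 after quantile normalization, 0.01 for arrays 1 and 3 alone and 0.15 for array 2 alone. Ccng1, cyclin G1, a target that feeds back on Mdm2, was 11.17, 11.33 and 11.25 in the arrays labelled Lxn-/-, against 11.12, 11.10 and 11.10 in WT. Like those of Mdm2, its values did not overlap, and the log2 difference was 0.15 (SE 0.09, limma adjusted p 0.410). Rprm, an arrest factor, was lower at an unadjusted p under 0.05 (-0.29, SE 0.12, limma adjusted p 0.340), and Ckap2 (0.11, SE 0.09) and Sfn (0.09, SE 0.08) came next. Cdkn1a, the inhibitor p21 and the best-known target, lies on a feature that is listed for another gene as well, so no value is given.

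Of 11 measured cell death targets 7 were higher and 4 lower, with a median of 0.08, which was 0.032 after quantile normalization and 0.025 for array 2 alone. The death receptor Eda2r (-0.33, SE 0.12), Tnfrsf10b (0.22, SE 0.10), Ei24 (0.20, SE 0.10) and Fas (-0.10, SE 0.08) had the smallest p, of which only Eda2r was under 0.05 before adjustment. Repair and metabolism targets had 8 of 12 higher at a median of 0.06 and 0 at an unadjusted p under 0.05, and their median was -0.01 for arrays 1 and 3 alone. First by p were the Fanconi gene Fancc (0.14, SE 0.09), the epoxide hydrolase gene Ephx1 (-0.29, SE 0.20), the damage-binding gene Ddb2 (0.14, SE 0.11) and Tigar (0.13, SE 0.11). The 8 measured targets of other kinds were evenly divided, at a median of 0.04, with Dyrk3 (0.22, SE 0.11), Epha2 (0.30, SE 0.15), Zfp365 (-0.16, SE 0.09) and Lif (-0.19, SE 0.12) first by p.

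**Figure D4:**
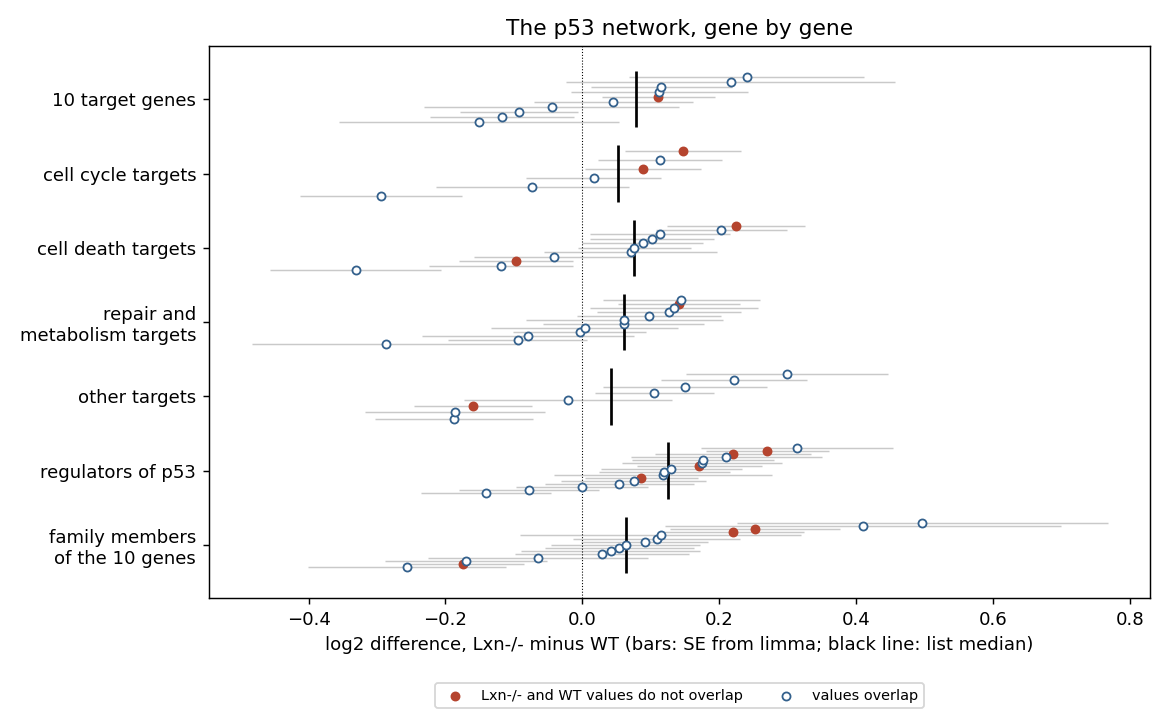
Log2 difference, arrays labelled Lxn-/- minus WT, with its SE from limma, for every measured gene of the p53 lists, 1 point a gene, sorted within each list; the black line is the median of the list. Filled points have no overlap between the labels, and the list medians lie between 0.04 and 0.13 here, although that of the cell cycle targets was -0.002 after quantile normalization.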

How the data were processed

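Total RNA of sorted progenitors, labelled from 100 ng, was hybridised to MoGene 1.0 ST arrays (Affymetrix), per the labels and the series text. The authors deposited 1 table with log2 values of 35557 features after RMA, as the series text states. RMA and Partek 6.0 are named in the submitters' processing notes. The log2 scale was read from the values (2.65 to 14.78). Sources used here do not give RMA settings, probe positions or scan batches. RMA gives arrays a common distribution of probe values, so a change in total RNA cannot be seen, and 6 arrays limit the precision. Over the features tested the arrays still differed somewhat. The difference of Mdm2, 0.11 as deposited, was 0.17 with arrays centred on their median and 0.03 after quantile normalization.

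Gene names come from the platform's probe table, with symbols updated by Entrez identifier (21698 of 21789 single-symbol features matched GRCm38.p6; 1621 features with several symbols were tested and left unnamed, and 12147 had none). A gene's brightest feature stood for it. Groups came from the sample titles. limma 3.58.1 (R 4.3.3; lmFit, eBayes, two-sided) was fitted to 23410 features with Benjamini-Hochberg adjustment at 0.05, after it was tested on simulated data. No pair of arrays shared over 18 identical values, so all were kept. Each array is a separate pool, and p-values measure the spread between pools.

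The members and lists were chosen with earlier results of these data known. Named were all members, Mdm4 and Ccng1, up to 4 genes per list by p, and 3 genes most like each of the 2 members with the smallest p. Lxn was named as the check of the label, and Plk3 and Sesn3 were named outside this rule. Arrays with the same replicate number did not deviate together (correlations 0.076, -0.008 and -0.006 across features), so they were not treated as pairs. The alternatives were the replicate block, arrays left out, quantile normalization, centring, array weights, a filter on level, all rows, eBayes with trend and robust options, and mean features. Promoter sequences are from RefSeq. Figures were drawn with matplotlib 3.10.9.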

Additional observations from a re-analysis of the deposited data

How the results depend on the processing

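In 15 alternatives, 14 for Zmat3, which the level filter removed, 0 of the 10 genes passed an adjusted p of 0.05 in limma. Mdm2 (0.03 to 0.17), Phlda3 (0.03 to 0.28) and Sesn2 (-0.18 to -0.03) kept their sign in all 15. Some of the 15 could not turn a sign. The replicate block, the level filter, the trend and robust options, all rows and mean features leave these genes' differences unchanged. Leaving out 1 array at a time moved the difference of Aen between -0.036 and 0.205, of Gadd45a between -0.048 and 0.125, of Sesn1 between -0.207 and 0.198 and of Trp53inp1 between -0.287 and 0.109. Without both arrays with Y-linked signal, Btg2 was -0.084, Plk2 -0.369, Gadd45a -0.103, Sesn1 0.280 and Trp53inp1 0.097. With array weights Sesn1 was 0.098 and Trp53inp1 0.060, with centred arrays Sesn1 was 0.012, and after quantile normalization Zmat3 was 0.030. The cause of these turns was not tested.

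The median difference of the 10 was -0.022 to 0.116 with 1 array left out, -0.013 without both Y-signal arrays and 0.135 with centred arrays. The number of members without overlap was 1 to 4 with 1 array left out, against 27% to 46.2% of all features, 5 without both Y-signal arrays, where 64.6% of all features had none because a single array is easily outside a range, and 0 after quantile normalization, against 12.8%. Over all features, 0 to 145 passed adjustment with 1 array left out (145 without array 2 labelled Lxn-/-), 3 without both Y-signal arrays and 1 with the replicate block, which changed no call among the 10. Features at an unadjusted p under 0.05 numbered 1628 to 5541 with 1 array left out, 1812 after quantile normalization, 1356 with the level filter, where 11705 were tested, and 5614 with array weights. Dim features carry no detection call, so small differences at low levels cannot be told from background.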
